A study of Mus musculus with 11 samples.

Results

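The proteasome is the protease that degrades ubiquitin-tagged proteins. Its genes were taken as all rows of the count table whose mouse symbol is Psma, Psmb, Psmc, Psmd, Psme, Psmf or Psmg followed by a number, which gave 48 genes of 52550 in all. Of these, 46 had enough reads to be tested, among 15044 tested genes. RNA-seq was performed on colonic epithelial cells of C57BL/6 mice with the genotype RAG1 KO, which lack mature T and B cells. The 6 FFD mice received a diet without fiber and the 5 CD mice a diet with cellulose, each for 4 weeks, and all 11 then received dextran sulphate sodium (DSS), which injures the colonic epithelium, in the drinking water for 5 days. All libraries are thus from DSS-treated mice without mature T and B cells, and none is from an untreated colon. The comparison asks whether expression in the epithelium after DSS differed with the diet. The study reports that RAG KO mice fed cellulose were more resistant to this colitis than those without it. The severity of inflammation can therefore not be told apart from the diet. The labels do not state that each library is a separate animal, although the libraries are called mice here, and p-values measure the spread between these libraries. All CD titles carry a first number 1 and all FFD titles a 2, so that a cage or batch following this number cannot be told apart from the diet.

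As background, the catalytic core, called 20S, is a barrel of outer alpha rings and inner beta rings, and 3 beta subunits cut proteins. The regulatory cap, called 19S, binds ubiquitin chains, unfolds the substrate with a ring of ATPases and feeds it into the core. Interferons induce 3 replacement beta subunits, which form the immunoproteasome, and the PA28 activator, and these favor peptides that MHC class I molecules present. In the gut epithelium, the immunoproteasome is known to be induced in inflammation.

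Promoters of 3 members are printed as examples: a constitutive catalytic subunit, the immunoproteasome subunit that replaces it, and a PA28 subunit. The 3 promoters printed each held a match to a motif searched below. They are RefSeq sequences of build GRCm38.p6, each 300 bases from 250 before to 50 after the annotated start, written 5′ to 3′ on the gene's strand. Capitals mark the motif matches. They lie at chr14:54617946-54618245 on the minus strand for Psmb5, at chr17:34197945-34198244 on the plus strand for Psmb8 and at chr14:55578244-55578543 on the plus strand for Psme1.
Psmb5: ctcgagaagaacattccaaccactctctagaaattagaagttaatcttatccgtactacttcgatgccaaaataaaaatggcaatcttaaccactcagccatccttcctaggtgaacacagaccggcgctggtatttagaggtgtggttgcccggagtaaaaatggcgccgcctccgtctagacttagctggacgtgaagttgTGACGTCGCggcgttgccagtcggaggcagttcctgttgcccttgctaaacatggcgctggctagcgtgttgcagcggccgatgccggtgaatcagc
Psmb8: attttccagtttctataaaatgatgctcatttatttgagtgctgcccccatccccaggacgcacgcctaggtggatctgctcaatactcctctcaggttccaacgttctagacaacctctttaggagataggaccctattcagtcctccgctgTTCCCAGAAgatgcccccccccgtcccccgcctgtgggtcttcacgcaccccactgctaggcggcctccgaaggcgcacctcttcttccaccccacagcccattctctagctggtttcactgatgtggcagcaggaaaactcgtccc
Psme1: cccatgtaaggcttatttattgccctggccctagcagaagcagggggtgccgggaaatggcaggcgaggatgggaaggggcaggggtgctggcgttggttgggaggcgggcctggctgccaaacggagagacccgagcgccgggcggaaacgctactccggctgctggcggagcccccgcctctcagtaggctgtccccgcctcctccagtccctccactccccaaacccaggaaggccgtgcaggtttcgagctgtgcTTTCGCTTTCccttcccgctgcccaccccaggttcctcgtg

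The motifs of 3 elements were searched on both strands. Each of the 3 printed windows held a match to 1 of them, so that no matches overlap. The windows of the other interferon-inducible genes, Psmb9, Psmb10 and Psme2, held no match to any of these motifs. TGACNNNGC, the core of the antioxidant response element, was present in the Psmb5 promoter as TGACGTCGC, 47 bases before the start. TTCNNNGAA, the gamma-activated sequence, was present in the Psmb8 promoter as TTCCCAGAA, 97 bases before the start. The interferon-stimulated response element, searched as GAAA, any 2 bases and GAAA again, was present in the Psme1 promoter on the opposite strand, printed as TTTCGCTTTC and starting 9 bases after the start. Promoter sequence was matched for 40 of the 48 genes, with 43 promoters. TGACNNNGC was found in 14.0% of these and in 12.4% of all 32851 promoters of the table, TTCNNNGAA in 6.98% and 8.30%, and the interferon-stimulated response element in 11.6% and 3.44%. The members holding the interferon-stimulated response element were Psmb3, Psmd4, Psmd9, Psme1 and Psmg4, so that only Psme1 of them is among the interferon-inducible genes described below. A match is a description of letters and not evidence of a binding site.

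Most proteasome genes had small negative log2 fold changes, FFD over CD, few of them were called lower, and none was called higher. Of the 46 tested genes, 10 were lower in FFD mice, with 0.05 as the threshold of the adjusted p (edgeR's quasi-likelihood test, Benjamini-Hochberg adjusted over all tested genes), 0 were higher and 36 did not pass. These 10 are 21.7% of the members, against 18.6% of all tested genes called lower, 18.2% called higher and 36.8% called in either direction, so that the share called lower is close to that of the table as a whole. The median log2 fold change was -0.16 for the members and -0.03 for all tested genes. A negative value was found for 37 of the 46 members and for 8098 of the 15044 tested genes. At an unadjusted p under 0.05 by edgeR there were 18 of the 46 members and 7027 of the 15044 tested genes. The count of 10 depended on single mice. Leaving out CD mouse 1 gave 17 and leaving out FFD mouse 1 gave 16, while the count was 6 without FFD mouse 3, 5 without CD mouse 2, and 4 without CD mouse 3, 4 or 5 or without FFD mouse 2, 4 or 6. Over all tested genes, 2348 of 15261 were called lower without CD mouse 1 and 2742 of 14868 without FFD mouse 1. Without FFD mouse 3 it was 2993 of 14850. With any other mouse left out, it was between 1983 of 15203 (CD mouse 3) and 2480 of 15183 (CD mouse 5). The share of 21.7% and its closeness to 18.6% are therefore those of the fit with all 11 mice. In the bulk samples, fewer cells that express a gene and less RNA per cell cannot be told apart.

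**Figure D1:**
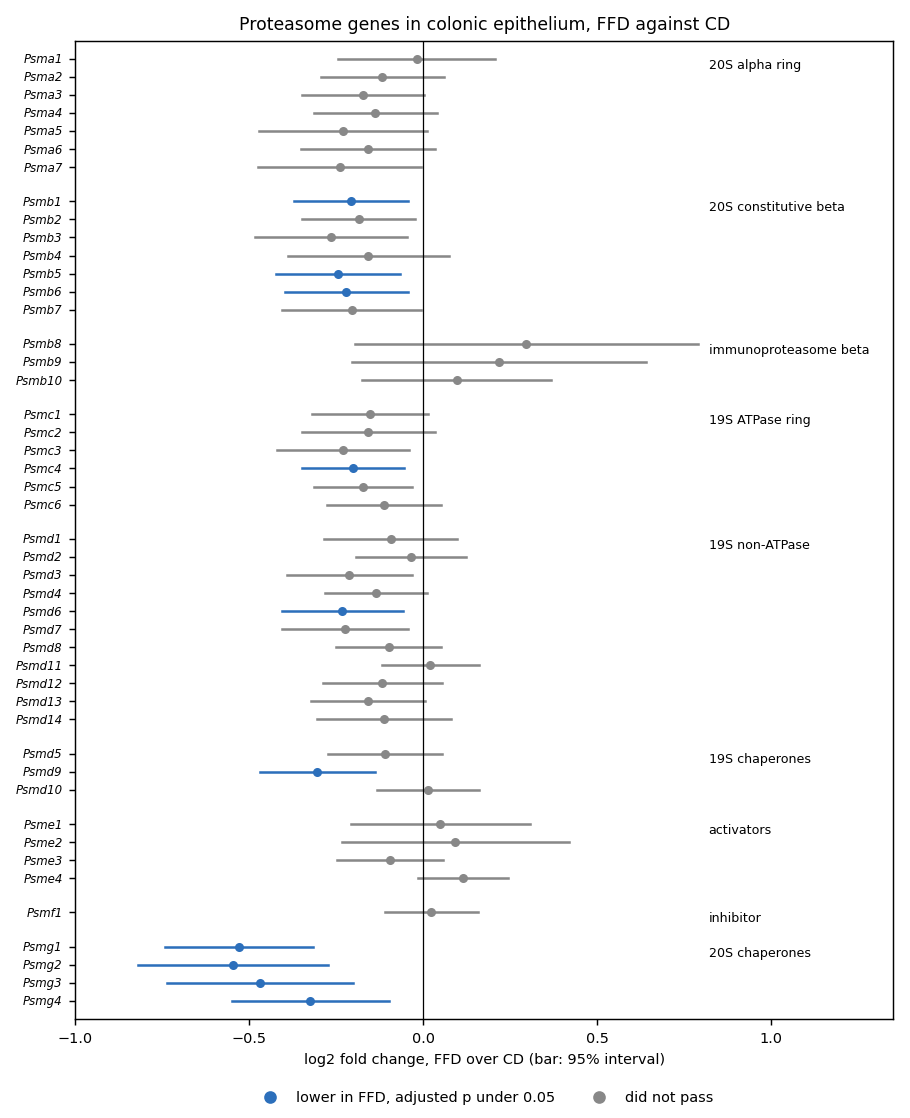
Log2 fold change of the 46 tested proteasome genes, FFD over CD, on the x axis, grouped by role; bars are 95% intervals of the edgeR fit. Blue marks the 10 genes lower in FFD mice, of which Psmg2 at -0.55 and Psmg1 at -0.53 lie farthest from 0, and the widest bars belong to Psmb8 and Psmb9.

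The scaling between libraries bears on all of these values. TMM factors were 0.893 to 1.05 in FFD mice and 1.03 to 1.08 in CD mice, and with total counts alone the median over all tested genes moved to -0.19, a shift that lowers every gene in FFD mice alike. With that scaling, 1636 genes were called higher and 4863 lower, against 2740 and 2792 with TMM, and 35 members were called lower and the members' median was -0.31. Total counts per library were 10374154 to 27973285 (median 24261218) in FFD mice and 20853535 to 28588266 (median 25543054) in CD mice. Epithelial markers such as Epcam were abundant, with 1810 to 2270 CPM (counts scaled to library size by TMM) in FFD mice and 1620 to 1750 CPM in CD mice. Of 10 such markers, 8 (80.0%, against 18.2% of all tested genes) were higher in FFD mice and 0 lower, with a median log2 fold change of 0.39. Vil1 had 0.63 and Cdh1 0.51, while Krt18 with 0.06 and Cdx2 with -0.11 did not pass. The part of these markers in the members' values was not tested. The lymphocyte markers Cd3e and Cd79a were at or near 0, with 18 and 17 counts over all 11 libraries.

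The 4 Psmg genes, which encode chaperones that assemble the 20S core, had the largest decreases among the members. All 4 (100%, against 18.6% of all tested genes) were lower in FFD mice. Pomp, a maturation factor of the 20S core described below, did not pass. Psmg1 and Psmg2 encode partners of a chaperone pair that helps build the alpha ring, and Psmg3 and Psmg4 encode a second such pair. Psmg1 was at 13.1 CPM in the lowest, 15.9 CPM in the median and 20.1 CPM in the highest FFD mouse, against 23.4, 22.8, 23.3, 26.2 and 23.6 CPM in CD mice 1 to 5. No FFD mouse reached the lowest CD mouse. The log2 fold change was -0.53 ± 0.10 (SE, n = 6 FFD and 5 CD) with an adjusted p of 0.00228 by edgeR. Psmg2 was at 7.08, 11.4 and 13.1 CPM in the lowest, median and highest FFD mouse, against 15.8, 14.6, 16.3, 16.0 and 16.6 CPM in CD mice 1 to 5. Again the diets did not overlap, and the log2 fold change was -0.55 ± 0.13 (SE) with an adjusted p of 0.00561. Psmg1 and Psmg2 were the only 2 of the 46 members without overlap between the diets, whereas 18.5% of all tested genes had none, 9.59% being lower and 8.91% higher in FFD mice.

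Psmg3 was at 8.66, 12.0 and 13.9 CPM in the lowest, median and highest FFD mouse, against 13.2, 16.6, 16.6, 18.4 and 17.1 CPM in CD mice 1 to 5. CD mouse 1 lay within the FFD range and the other CD mice above it. The log2 fold change was -0.47 ± 0.12 (SE) with an adjusted p of 0.0108 by edgeR, and 9.68% of the exon bases of Psmg3 are shared with Gm26938. Psmg4 was at 9.82, 10.5 and 11.7 CPM in the lowest, median and highest FFD mouse, against 12.9, 11.0, 13.1, 16.8 and 13.4 CPM in CD mice 1 to 5. CD mouse 2 lay within the FFD range, and the highest CD value was that of mouse 4. The log2 fold change of -0.32 ± 0.10 (SE) had an adjusted p of 0.0279, and this call was lost without CD mouse 3, 4 or 5 or without FFD mouse 2, 4 or 6, with a value of -0.23 without CD mouse 4. The calls of Psmg1 and Psmg2 held under all 19 alternatives. Summed over the 4 genes, the chaperones were at 40.6 to 57.6 CPM in FFD mice and 64.9 to 77.4 CPM in CD mice.

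Genes of dividing cells moved in the same direction. Of 20 such genes tested, 16 (80.0%, against 18.6% of all tested genes) were lower in FFD mice and 0 higher, with a median log2 fold change of -0.68, and their summed level was 694 to 1578 CPM in FFD mice and 1654 to 2256 CPM in CD mice. FFD mouse 6 had the lowest summed level of these genes, and it also had the lowest level for Psmg1 and Psmg2. For Psmg3 the lowest was FFD mouse 4 and for Psmg4 FFD mouse 2. FFD mouse 6 was also the lowest for 18 of the 41 members outside the interferon-inducible ones described below, so that this is not particular to the chaperones. The part of dividing cells in the chaperone result was not tested.

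**Figure D2:**
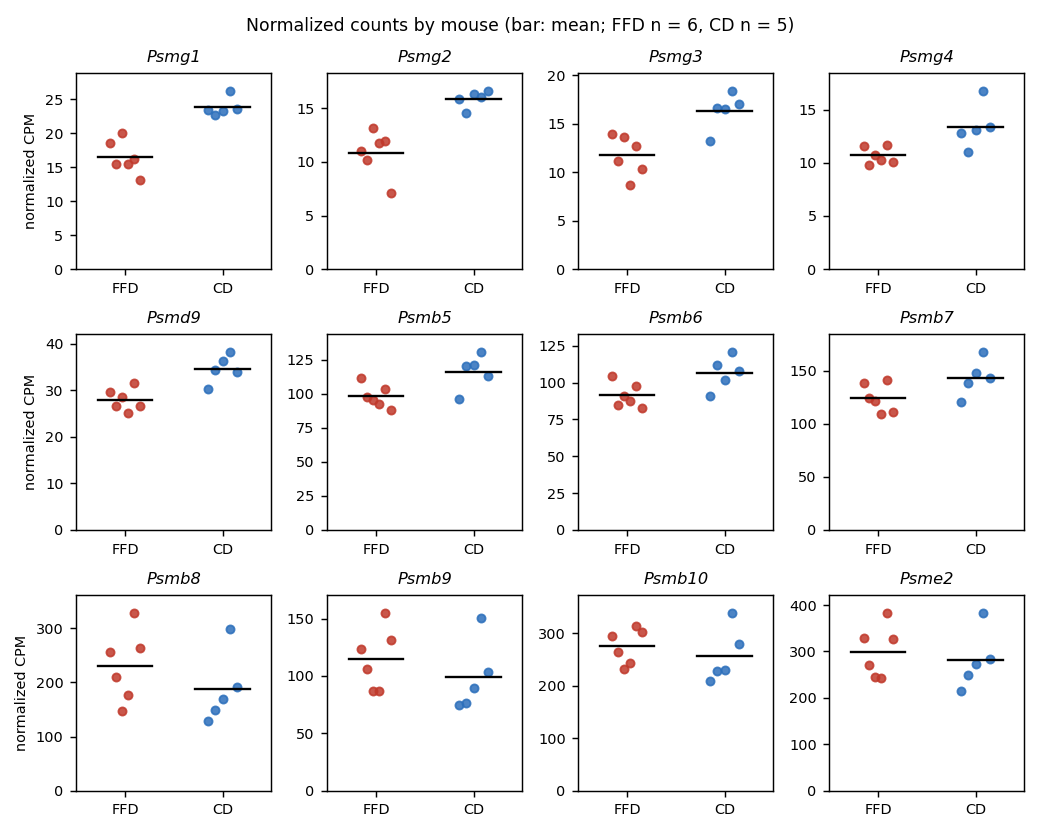
TMM-normalized CPM (y axis, starting at 0) of 12 proteasome genes in FFD mice (red, left, n = 6) and CD mice (blue, right, n = 5); each point is a mouse and each bar a mean. All FFD points lie below all CD points for Psmg1 and Psmg2, while the points of Psmb8 and Psmb9 spread widely in both diets.

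The assembly of the 19S cap uses its own chaperones, encoded by Psmd5, Psmd9 and Psmd10, and of these only Psmd9 passed the test. Psmd9 was at 25.1, 27.6 and 31.6 CPM in the lowest, median and highest FFD mouse, against 30.3, 34.4, 36.3, 38.2 and 34.0 CPM in CD mice 1 to 5. Only FFD mouse 5 lay above the lowest CD mouse. Its log2 fold change was -0.31 ± 0.08 (SE) with an adjusted p of 0.00842 by edgeR. As 25.5% of its exon bases are shared with Gm26745 and it is not known how reads in overlapping genes were assigned, the value is uncertain. Psmd5 and Psmd10 had log2 fold changes of -0.11 and 0.01, and the second was negative with total counts alone. Pomp, which encodes the maturation factor of the 20S core and is not a Psm gene, was at 117 ± 13.2 CPM in FFD mice and 123 ± 15.8 CPM in CD mice (SD), with a log2 fold change of -0.07 and an adjusted p of 0.613.

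The constitutive 20S core was lower in FFD mice in 3 of 14 genes (21.4%, against 18.6% of all tested genes). All 14 log2 fold changes were negative, with a median of -0.20. None of the 7 alpha genes, Psma1 to Psma7, which form the outer rings, passed the test. Their log2 fold changes were between -0.24 (Psma7) and -0.02 (Psma1), and the value of Psma1 changed its sign with the tool. Of the 7 constitutive beta genes, Psmb1, Psmb5 and Psmb6 were lower. Psmb5, the subunit with chymotrypsin-like activity, was at 88.4, 96.4 and 111 CPM in the lowest, median and highest FFD mouse, against 96.2, 121, 121, 131 and 113 CPM in CD mice 1 to 5. CD mouse 1 lay within the FFD range and the other CD mice above it. The log2 fold change was -0.25 ± 0.08 (SE) with an adjusted p of 0.0335 by edgeR, which corresponds to a level 15.6% lower.

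Psmb6, which has caspase-like activity, was at 82.5, 89.6 and 105 CPM in the lowest, median and highest FFD mouse, against 91.2, 112, 102, 121 and 108 CPM in CD mice 1 to 5. The ranges overlapped at CD mice 1 and 3, and the log2 fold change of -0.22 ± 0.08 (SE) had an adjusted p of 0.0495. Psmb1, which encodes a noncatalytic beta subunit, had a log2 fold change of -0.21 ± 0.08 (SE) and an adjusted p of 0.0472. Psmb7, which has trypsin-like activity, had -0.21 ± 0.09 (SE) and did not pass, with an adjusted p of 0.0964. Among the remaining beta genes, Psmb2, Psmb3 and Psmb4 had values of -0.19, -0.26 and -0.16 and adjusted p of 0.0691, 0.0552 and 0.267. The calls of Psmb5, Psmb1 and Psmb6 held in 9, 6 and 5 of the 19 alternatives.

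Of 17 subunit genes of the 19S cap, 2 were lower in FFD mice (11.8%, against 18.6% of all tested genes), and 16 of the 17 log2 fold changes were negative. Of its 6 ATPase genes, Psmc1 to Psmc6, only Psmc4 passed. It was at 82.6, 86.1 and 97.4 CPM in the lowest, median and highest FFD mouse, against 90.3, 101, 107, 111 and 103 CPM in CD mice 1 to 5, so that CD mouse 1 alone lay within the FFD range. Its log2 fold change was -0.20 ± 0.07 (SE) with an adjusted p of 0.0336, and those of the other 5 ATPase genes were between -0.23 (Psmc3) and -0.11 (Psmc6). Of the 11 non-ATPase genes, only Psmd6, a subunit of the lid, passed. It was at 67.0, 80.5 and 90.0 CPM in the lowest, median and highest FFD mouse, against 83.8, 91.2, 98.9, 101 and 96.1 CPM in CD mice 1 to 5. Again CD mouse 1 was the only CD mouse within the FFD range. The log2 fold change was -0.23 ± 0.08 (SE) with an adjusted p of 0.0372. The calls of Psmc4 and Psmd6 each held in 9 of the 19 alternatives. Those of Psmb1, Psmb5, Psmb6, Psmc4 and Psmd6 were all lost without any of CD mice 2 to 5 or FFD mice 2, 4 or 6, those other than Psmd6 also without FFD mouse 3, and those of Psmb1 and Psmb6 also without FFD mouse 5. Psmd7, which pairs with the deubiquitinase subunit, just missed the threshold with -0.23 and an adjusted p of 0.0509. Psmd14, that deubiquitinase, had a log2 fold change of -0.11, Psmd4, a ubiquitin receptor, -0.14, and the scaffold genes Psmd1 and Psmd2 -0.09 and -0.04. Psmd11, another lid subunit, was the only cap subunit of the Psmc and non-ATPase groups with a positive value, 0.02, which was negative without CD mouse 2, without FFD mouse 5 and with total counts alone.

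The immunoproteasome genes had positive values but did not pass the test. Psmb8, which replaces Psmb5, was at 148, 233 and 329 CPM in the lowest, median and highest FFD mouse, against 128, 150.0, 170, 299 and 192 CPM in CD mice 1 to 5. The diets overlapped, and in CD mice the level in mouse 4 stood well above the others. The log2 fold change was 0.30 ± 0.23 (SE), with a 95% interval of -0.20 to 0.79 and an adjusted p of 0.326 by edgeR. Psmb9, which replaces Psmb6, was at 86.5, 115 and 155 CPM in the lowest, median and highest FFD mouse, against 74.6, 76.7, 89.4, 151 and 103 CPM in CD mice 1 to 5. Its ranges overlapped likewise, and the log2 fold change was 0.22 ± 0.20 (SE) with an interval of -0.20 to 0.64 and an adjusted p of 0.401. Psmb10, which replaces Psmb7, was at 233, 279 and 314 CPM in the lowest, median and highest FFD mouse, against 209, 227, 231, 339 and 280 CPM in CD mice 1 to 5. The highest value of all 11 was in a CD mouse, and the log2 fold change was 0.10 ± 0.13 (SE) with an interval of -0.17 to 0.37. With total counts alone, the value of Psmb10 was negative. These values depended on single mice. Without CD mouse 4 the log2 fold changes were 0.53 for Psmb8, 0.42 for Psmb9 and 0.22 for Psmb10, with adjusted p of 0.0609, 0.0694 and 0.14. Without FFD mouse 5 they were 0.17, 0.11 and 0.06, and without CD mouse 1 they were 0.20, 0.15 and 0.05.

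The PA28 activator genes did not pass the test either. Psme1 and Psme2 encode its alpha and beta subunits. Psme2 was at 243, 299 and 383 CPM in the lowest, median and highest FFD mouse, against 216, 249, 273, 383 and 283 CPM in CD mice 1 to 5. The ranges were nearly the same, and the log2 fold changes were 0.09 ± 0.15 (SE) for Psme2 and 0.05 ± 0.12 (SE) for Psme1, both negative with total counts alone. Psme2 has a near-identical copy, Psme2b on chromosome 11, which held 225 counts over all 11 libraries, against 75728 for Psme2. Of the other activators, Psme3, the nuclear PA28 gamma subunit, had a log2 fold change of -0.10, and Psme4, the PA200 activator, 0.11 with an adjusted p of 0.153. The inhibitor Psmf1 had 0.02, and the values of Psme4 and Psmf1 were negative with total counts alone. The tissue-restricted subunits were nearly silent: Psma8, known from the testis, had 16 counts over all 11 libraries, and Psmb11, known from thymic epithelium, had 1 count, in CD mouse 1. Neither was tested.

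The 5 interferon-inducible members, Psmb8, Psmb9, Psmb10, Psme1 and Psme2, had a wider spread between mice of the same diet than most other members, which is given as a description with no test. Their median coefficient of variation was 18.6% in FFD mice and 22.4% in CD mice, against 9.22% in FFD mice and 8.97% in CD mice for the other 41. FFD mouse 5 was the highest FFD mouse for all 5 genes, CD mouse 4 the highest CD mouse for all 5 and CD mouse 1 the lowest CD mouse for all 5. The lowest FFD mouse was mouse 3 for Psmb8, Psmb9 and Psmb10 and mouse 4 for Psme1 and Psme2. The same mice led the other members in part, since CD mouse 4 was the highest CD mouse for 31 of 41, CD mouse 1 the lowest for 29 of 41 and FFD mouse 5 the highest FFD mouse for 23 of 41. FFD mouse 6 differed between these groups, as it was the lowest FFD mouse for 18 of the other 41 members and for none of the 5 inducible genes. Summed over the 5 genes, levels were 921 to 1469 CPM in FFD mice and 815 to 1476 CPM in CD mice.

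**Figure D3:**
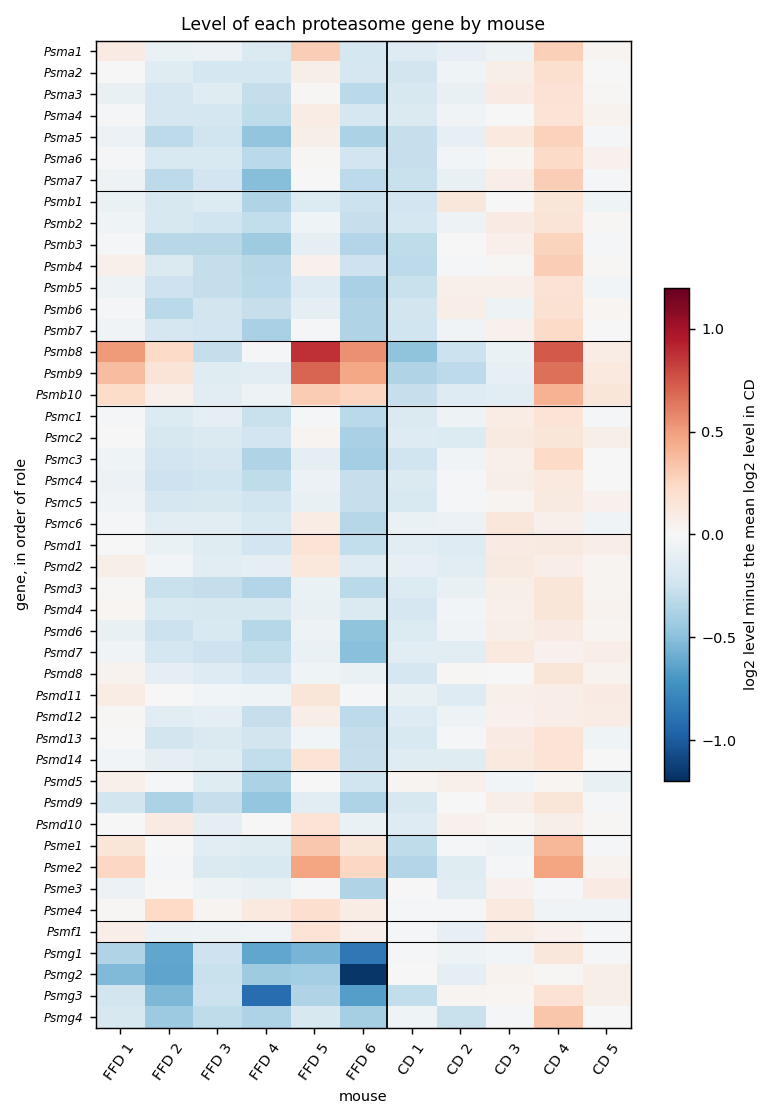
Level of each of the 46 tested proteasome genes (rows, in order of role) in each mouse (columns, FFD left and CD right), as log2 level minus the mean log2 level in CD mice. The Psmg rows are blue in all FFD mice, and the Psmb8 and Psmb9 rows are reddest in FFD mouse 5 and CD mouse 4.

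Per kilobase of exon, immunoproteasome transcripts were of the same order as the constitutive ones. Psmb8 was at 68.1 CPM per kilobase in FFD mice and 55.5 in CD mice, beside 109 in FFD mice and 129 in CD mice for Psmb5. Psmb10 was at 161 in FFD mice and 151 in CD mice, beside 36.4 in FFD mice and 42.0 in CD mice for Psmb7, and Psmb9 at 31.4 in FFD mice and 27.0 in CD mice, beside 48.9 in FFD mice and 57.0 in CD mice for Psmb6. Merged exons count every annotated isoform, so that these levels are approximate. Psmb9 and Psmb8 lie on chromosome 17 beside the peptide transporter genes Tap1 and Tap2, and 5.79% of the exon bases of Psmb9 are shared with Tap1. Shared exon bases made up 14.7% of Psmb8 (Gm20496), 12.1% of Psmb5 (Mir686) and 11.8% of Psmb7 (Nek6), which bears on these levels and on the ratios below.

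Within each mouse, the level of a replacing subunit relative to the subunit it replaces does not depend on the scaling between libraries. The log2 ratio of Psmb8 to Psmb5 counts was 1.19 ± 0.39 in FFD mice and 0.63 ± 0.35 in CD mice (SD, n = 6 and 5), a difference of 0.55 with p = 0.0411 by a two-sided exact permutation test over the 462 splits of the mice. For Psmb9 to Psmb6 it was 0.30 ± 0.32 in FFD mice and -0.15 ± 0.32 in CD mice, a difference of 0.45 (exact permutation p = 0.0498). For Psmb10 to Psmb7 it was 1.14 ± 0.17 in FFD mice and 0.83 ± 0.16 in CD mice, a difference of 0.32 (exact permutation p = 0.00866). After adjustment over the 3 ratios, the exact permutation p were 0.0498, 0.0498 and 0.026. The diets overlapped in all 3 ratios. FFD mice 3 and 4 were the lowest FFD mice for Psmb9 to Psmb6, and CD mouse 4 was the highest CD mouse in each ratio.

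The calls of the ratios were lost for most choices of 1 mouse left out, where fewer splits are also possible. The adjusted p was above 0.05 for Psmb8 to Psmb5 and Psmb9 to Psmb6 when any of CD mice 1, 2, 3 or 5 or FFD mice 1, 2, 5 or 6 was left out, and for Psmb10 to Psmb7 when any of CD mice 1, 2 or 3 or FFD mice 1, 2, 5 or 6 was left out. The differences stayed positive, at 0.46 to 0.69, 0.36 to 0.57 and 0.26 to 0.36. Each difference combines a negative fold change of the replaced subunit, past the threshold for Psmb5 and Psmb6 and not for Psmb7, with a positive one of the replacing subunit that did not pass.

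**Figure D4:**
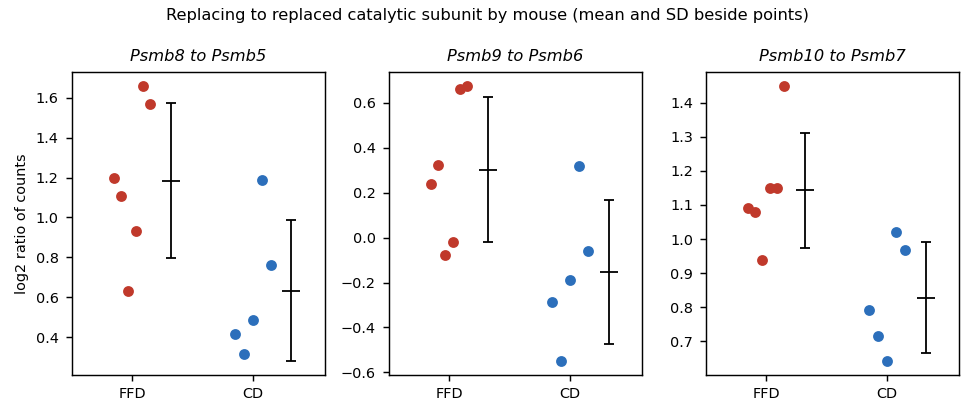
Log2 ratio of counts (y axis, one scale per panel) of each immunoproteasome subunit to the constitutive subunit it replaces, in FFD mice (red, left, n = 6) and CD mice (blue, right, n = 5); points are mice, with mean and SD beside them. The ratio means are higher in FFD mice in each panel, by 0.55, 0.45 and 0.32, and the points of the diets overlap.

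Other genes of the ubiquitin-proteasome system included some higher and some lower in FFD mice. Of 35 such partner genes tested, 5 (14.3%) were higher in FFD mice, 6 (17.1%) were lower and 24 did not pass, against 18.2% higher and 18.6% lower among all tested genes, with a median log2 fold change of -0.07. The 5 higher genes included 3 of the 6 genes around Nfe2l1, the transcription factor that raises proteasome genes when proteasome activity falls short. Nfe2l1 was at 215 ± 14.8 CPM in FFD mice and 170 ± 12.2 CPM in CD mice (SD), with a log2 fold change of 0.34 and an adjusted p of 0.00328 by edgeR. Ngly1, the enzyme that removes glycans from the Nfe2l1 protein, was at 86.2 ± 8.77 CPM in FFD mice and 60.0 ± 3.53 CPM in CD mice without overlap (log2 fold change 0.52, adjusted p = 0.00103). Zfand5, which encodes a proteasome-binding zinc finger protein, had 0.50. The related factor Nfe2l2 had -0.13 with an adjusted p of 0.238.

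Among the 6 lower partner genes, Rps27a had the largest difference. Rps27a, which encodes a fusion of ubiquitin and a ribosomal protein, was at 430 ± 52.8 CPM in FFD mice and 638 ± 70.8 CPM in CD mice without overlap (log2 fold change -0.57, adjusted p = 0.00179 by edgeR). Akirin2, which is needed for import of proteasomes into the nucleus, had -0.20 without overlap, and Txnl1, a thioredoxin bound to the proteasome, -0.20. The deubiquitinases of the cap Usp14 and Uchl5 had -0.24 and -0.35. The call was lost for Txnl1 without any of CD mice 1 to 5 or FFD mice 2, 4 or 6, for Uchl5 without CD mouse 1, 3 or 4 or FFD mouse 2 or 4, and for Usp14 without CD mouse 3 or 5 or FFD mouse 2 or 4. Sqstm1, an autophagy receptor for ubiquitinated cargo, was higher with 0.34, and Ube2l6, the conjugating enzyme of the ubiquitin-like protein ISG15, with 0.78. The remaining cap subunits Adrm1 and Sem1 did not pass, with -0.09 and 0.07.

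The MHC class I pathway, which uses proteasome peptides, and interferon genes were also counted. Of 14 class I genes tested, 6 (42.9%, against 18.2% of all tested genes) were higher in FFD mice and 0 lower, including Nlrc5, the transactivator of class I genes (log2 fold change 0.74, adjusted p = 0.0172 by edgeR), and Tap2 (0.65, 0.00979). Tap1 had 0.36 with an adjusted p of 0.19. Of 24 interferon regulators and targets, 9 (37.5%) were higher and 1 (4.17%, against 18.6% of all tested genes), Cxcl10, was lower, and the call of Cxcl10 was lost without CD mouse 4. Higher were Ifngr1, a chain of the interferon gamma receptor (0.72), and Irf7 (1.59), whereas Irf1 (0.15, adjusted p = 0.504), a transcription factor known to act on immunoproteasome genes, did not pass. Leukocytes also express immunoproteasome genes. Of 10 general leukocyte markers, 1 was higher, Ptprc, and their summed level was 45.9 to 57.3 CPM in FFD mice and 42.5 to 49.7 CPM in CD mice. Of 13 macrophage and monocyte markers, 5 (38.5%) were higher. Their summed level was 136 to 175 CPM in FFD mice and 93.0 to 132 CPM in CD mice. The defining markers C1qa, Cd68 and Adgre1, however, were each below 2 CPM in every mouse. Of 5 neutrophil markers, 2 were higher, Ly6g with a log2 fold change of 2.20 and S100a8 with 1.51, and the summed level was 67.4 to 226 CPM in FFD mice and 24.4 to 65.7 CPM in CD mice without overlap. Most of this was Ly6g, at 63.6 to 217 CPM in FFD mice and 19.9 to 60.8 CPM in CD mice, while the neutrophil marker Csf3r was below 1 CPM in every mouse. Of 4 dendritic cell markers, 1 (25.0%) was higher, Itgax with 0.56. Of 6 markers of innate lymphoid and natural killer cells tested, 0 were higher and 0 lower. The summed level of that list was 13.3 to 18.1 CPM in FFD mice and 15.7 to 27.9 CPM in CD mice. It was highest in CD mouse 4 (27.9 CPM) and CD mouse 2 (26.7 CPM). The part of leukocytes in the levels of the inducible genes was not tested.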

How the data were processed

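The deposited values are counts of reads per gene, which the authors made from RNA-seq of colonic epithelial cells mapped to GRCm38 and did not normalize. DESeq2 1.22.2 with R 3.5.1 and FastQC appear in the processing notes of the submitters. Which annotation release was used, whether strand was used and how reads that match several genes were treated was not given in the sources used here. All 11 libraries were used, grouped by the diet in the labels. The diets were compared with edgeR 4.0.16 (R 4.3.3, quasi-likelihood test, TMM, default filter with a minimum count of 10, Benjamini-Hochberg adjustment over all tested genes, threshold 0.05); the study itself used DESeq2, which was an alternative here. CPM are TMM-normalized. Ratios used a prior count of 0.5 and exact permutation tests. Alternatives were size factors and tests of DESeq2 1.42.0, total counts alone, no or a stricter filter, limma-voom (limma 3.58.1), a robust fit, a replicate block, another prior count, and each mouse left out. Scripts were tested on simulated data. The text names every gene of the symbol rule, and of each other list up to 4 genes with the smallest p, genes that moved against their list and fixed genes such as Pomp, Nfe2l1 and Tap1, except that some genes are not reported here. Members and lists were chosen with earlier results of these data known. Coordinates and exon lengths are from GENCODE and promoters from RefSeq; all 48 genes were found in GENCODE.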

Additional observations from a re-analysis of the deposited data

Results flagged for a closer look

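Within a diet, 7 values stood apart from the other mice by Dixon's test, among 158 groups searched, and chance gives about 1 in 20. Among proteasome genes, Psme4 was at 150.1 CPM in CD mouse 3, the highest of its diet, and at 137.1 CPM in the next. Psme3 was at 100.3 CPM in FFD mouse 6, the lowest of its diet, and at 120.5 CPM in the next. Psmg1 was at 26.2 CPM in CD mouse 4, the highest of its diet, and Psmd10 at 28.1 CPM in CD mouse 1, the lowest of its diet. Among the other genes, Nlrc5 was at 42.7 CPM in FFD mouse 5, Irf7 at 296 CPM in FFD mouse 1 and Cxcl10 at 10.5 CPM in FFD mouse 3, each the highest of its diet.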

How the results depend on the processing

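No proteasome gene was called higher in FFD mice under any alternative. The 10 lower calls (Psmb1, Psmb5, Psmb6, Psmc4, Psmd6, Psmd9 and Psmg1 to Psmg4) were 35 with total counts alone, 4 without a filter on low counts, 2 with the replicate block and 4 to 17 with 1 mouse left out; the members' median was -0.31 with total counts alone, where partner genes gave 17 lower, MHC class I genes 3 higher and 1 lower, and interferon genes 5 higher. Over all tested genes, 4863 of 15044 were lower with total counts alone and 2205 of 32619 without the filter. With the replicate block it was 1829 of 15044, and with 1 mouse left out 1983 to 2993. Without the filter, 3 partner genes were lower. Limma-voom gave 0 lower interferon genes. Total counts alone also turned the sign of Psmf1 (-0.13), Psmb10 (-0.062), Psme4 (-0.0417), Psmd11 (-0.13), Psme1 (-0.11), Psme2 (-0.0691), Psmd10 (-0.14), Sem1 (-0.0856), Ube4a (-0.0025) and Irf1 (-0.00977). Psma1 was at 0.00282 with DESeq2. Same-numbered mice of the diets had correlations of -0.23, -0.27, 0.22, -0.31 and 0.30 between their deviations. The FFD mouse with the highest correlation carried the same number for CD mice 3 and 5 and another number for CD mice 1, 2 and 4. These values do not settle whether the numbers pair the mice. With the replicate block, Psmg1 and Psmg2 were still called, partner genes gave 3 lower, MHC class I genes 3 higher and interferon genes 0 lower. Psma1 was then at 0.0179, and the ratios had differences of 0.47, 0.38 and 0.26, none passing. The 5 pairs allow no exact p below 0.0625. Leaving out 1 mouse gave 3 to 6 lower partner genes (3 without CD mouse 3 or FFD mouse 2), 5 to 10 higher MHC class I genes (10 without CD mouse 4) and 0 to 1 lower interferon genes (0 without CD mouse 4), and ratio differences of 0.46 to 0.69, 0.36 to 0.57 and 0.26 to 0.36. It turned the sign of Pomp (-0.119 to 0.00655), Psma1 (-0.0903 to 0.0627), Psmd10 (-0.0196 to 0.0498), Psmd11 (-0.00647 to 0.0612), Psmd2 (-0.0699 to 0.00188), Psme1 (-0.00935 to 0.164) and Psmf1 (-0.0067 to 0.0551), none of them called. The cause of these changes was not tested.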
